A study of Mus musculus with 10 samples.

Results

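The 10 genes of BMP and TGF-beta signaling examined here in brain endothelial cells (BECs) were the receptors Acvrl1, Bmpr2, Tgfbr1 and Tgfbr2, the co-receptor Eng, the signal transducer Smad1, the inhibitory Smads Smad6 and Smad7, and the target genes Id1 and Id3. They were taken by name, and 10 of the 10 were found among 14106 genes measured. The BECs were CD31+CD45- cells enriched with microbeads from the dissociated cortex of 1 year old female mice. Bulk RNA sequencing gave 5 libraries from APP/PS1 mice, which carry the APPSwe and PSEN1DE9 transgenes and accumulate amyloid-beta in the brain, and 5 from age-matched female controls of the same C3H/BL6 background, labelled WT. The sources used here do not say whether libraries stand for single mice or pools, so each SD is a spread between batch-corrected libraries. The p-values rest on the differences between paired libraries, not on a known spread between mice.

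In endothelial cells, ligands of the BMP and TGF-beta family bring together type I and type II receptors, which phosphorylate Smad proteins that enter the nucleus with Smad4. BMP9 and BMP10 signal through the type I receptor ALK1, encoded by Acvrl1, with the type II receptor BMPR2 and the co-receptor endoglin, to Smad1, Smad5 and Smad9. TGF-beta binds TGFBR2 and the type I receptor ALK5, encoded by Tgfbr1, and acts mainly through Smad2 and Smad3. The Id genes and the inhibitory Smads are induced by these signals, and the inhibitory Smads feed back on the receptors. Loss-of-function variants of ACVRL1 or ENG cause hereditary hemorrhagic telangiectasia in people, a disease of fragile and directly connected vessels.

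No member passed the test between genotypes, and the interval of the difference included 0 for 9 of the 10 members. Tgfbr1 was the member whose 5 differences all pointed the same way, at 1.08-fold in APP/PS1 BECs, with an adjusted p of 0.60 (limma). Smad7 had the widest spread, from 0.85 higher to 0.33 lower on the log2 scale within a replicate number. Id1, Eng and Acvrl1 stood among the most abundant transcripts of these cells per length of exon.

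Promoter sequences are shown first, because the feedback genes of this pathway carry sites that Smad proteins can bind. Windows of 300 bases, from 250 bases before to 50 bases after a RefSeq start (assembly GRCm38.p6), were used for 6 of the 10 members, among which Tgfbr1 had 2 windows. Each window was searched on both strands for the palindromic Smad-binding element GTCTAGAC, the Smad box CAGAC, which reads GTCTG on the other strand, and the GC-rich site GGCGCC. Of 32851 such windows of the mouse genome, 0.213% held GTCTAGAC, 49.6% held CAGAC and 11.9% held GGCGCC. Smad6 was the member, of these 6, with the palindromic element, whose first base lay 4 bases before the start. Its promoter is printed from 250 bases before to 10 bases after the start (chr9:64022050-64022309, minus strand), with that element in capitals.
Smad6: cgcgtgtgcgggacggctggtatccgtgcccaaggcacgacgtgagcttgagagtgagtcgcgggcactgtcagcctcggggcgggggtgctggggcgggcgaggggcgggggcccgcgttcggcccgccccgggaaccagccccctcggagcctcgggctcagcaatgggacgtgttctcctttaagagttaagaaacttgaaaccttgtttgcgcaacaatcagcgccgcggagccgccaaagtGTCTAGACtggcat

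The other matches are shown as 30 bases around each site, on the strand of the gene, with the matched letters in capitals. Id3 and Eng held 2 Smad boxes each, and Bmpr2 and the upstream window of Tgfbr1 held the GC-rich site. The downstream window of Tgfbr1 held 1 Smad box. The Smad1 window held none of these motifs. A match describes the letters of the window and does not show that a protein bound there.
Id3, chr4:136143642-136143671: ctgtcctcggcgtCAGACcagcctaaggaa
Id3, chr4:136143741-136143770: tggacccttggcgGTCTGttttgaataagg
Eng, chr2:32646368-32646397: cagggacttcaacCAGACcttgtcccctat
Eng, chr2:32646455-32646484: gtgcatgggggagGTCTGttgcctgggccc
Bmpr2, chr1:59764162-59764191: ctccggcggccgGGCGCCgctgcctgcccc
Tgfbr1, upstream window, chr4:47352977-47353006: ggctggagtaaaGGCGCCcagcggtgaggg
Tgfbr1, downstream window, chr4:47386000-47386029: atttcgaactcagCAGACagccccacggtc

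Levels are given as log2 CPM (log2 of counts scaled to a common library size) as deposited after the authors' batch correction, and a difference is APP/PS1 minus control. The values converted back to whole adjusted counts, which summed to between 22371766 and 126686149 per library, with the lowest totals in replicate 1 of each group. The lowest adjusted count of any member was 1302, in Tgfbr1, but an adjusted count is no longer a read and carries no counting error that could be computed. The correction set the means of each replicate number nearly equal, so the control and APP/PS1 libraries of a number are mirror images. SDs over libraries thus lack the spread between replicate numbers that the correction removed. The 5 differences within a number carry the information. Differences were therefore tested with the replicate number as a block in limma, with p-values adjusted over 14106 genes. By this test 0% of all genes passed at an adjusted p of 0.05 (0 of 14106, and also 0 by limma-voom on the adjusted counts), and 8.03% had an unadjusted p below 0.05. A total of 2.99% of genes were higher in APP/PS1 in all 5 numbers, 5.00% were lower in all 5, and in 7.88% the libraries of the groups did not overlap. Because the libraries are mirrored, separate groups are nearly the same event as 5 differences of 1 sign.

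Compared per length of exon, the members spanned over 5 log2 units. Eng stood highest, at 8.64 ± 0.119 log2 CPM per kb (SD, n = 10 libraries), followed by Id1 at 8.57 ± 0.0266 and Acvrl1 at 8.24 ± 0.0731. The ranges of Eng and Id1 over the libraries overlapped, while Acvrl1 lay below every library of Id1. Each of these genes was above at least 99.4% of all genes on this scale. Id3 came next at 7.52 ± 0.0885, and the type II receptors Bmpr2 (5.97 ± 0.0901) and Tgfbr2 (5.96 ± 0.0633) overlapped in range. Smad7 (5.16 ± 0.240) and Smad6 (4.48 ± 0.166) overlapped in range, as did Smad1 (3.39 ± 0.0906) and Tgfbr1 (3.16 ± 0.0628) at the low end of the order. Tgfbr1 was still above 64.9% of all genes.

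**Figure D1:**
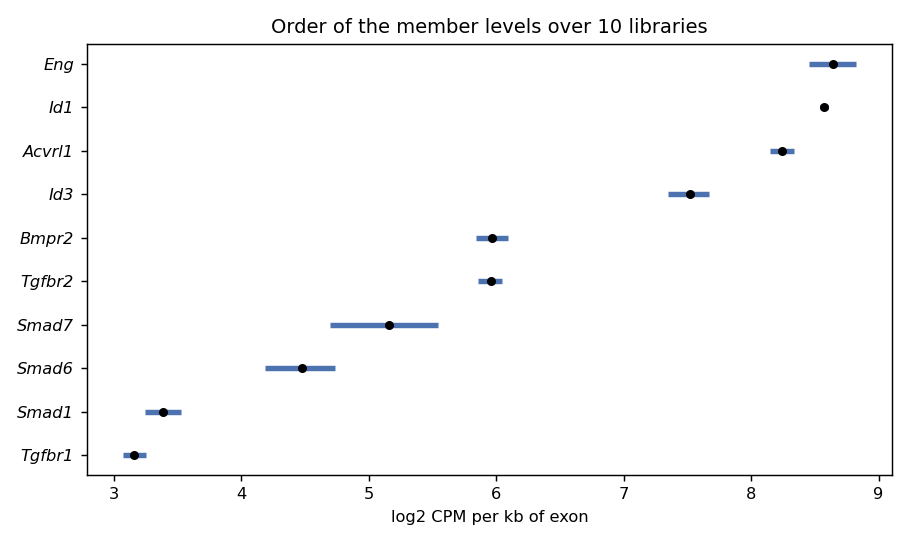
Levels of the 10 members per length, in log2 CPM per kb of exon on the horizontal axis, with points for the mean and bars for the range over all 10 libraries. The order runs from Eng at 8.64 to Tgfbr1 at 3.16, and the ranges overlap between Eng and Id1, Bmpr2 and Tgfbr2, Smad7 and Smad6, and Smad1 and Tgfbr1.

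The type I receptors of the 2 branches differed in level in every library. Acvrl1 exceeded Tgfbr1 per length by 4.94 to 5.22 log2 units, a mean of 33.8-fold. The log2 ratio averaged 5.12 ± 0.0830 over the controls and 5.04 ± 0.0825 over the APP/PS1 libraries (SD, n = 5 each). Within replicate numbers 1 to 5, the ratio in APP/PS1 minus that in control was 0.064, -0.28, -0.11, 0.12 and -0.17, with both signs present.

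Among the receptors, Acvrl1 (ENSMUSG00000000530, chr15:101128522-101145336) showed levels of 10.24, 10.42, 10.34, 10.26 and 10.33 log2 CPM in control libraries 1 to 5. Its APP/PS1 libraries 1 to 5 had 10.43, 10.24, 10.34, 10.42 and 10.34. The groups overlapped fully, with APP/PS1 higher in numbers 1 and 4, lower in number 2 and nearly equal in numbers 3 and 5. The mean difference was 0.0364 ± 0.0677 (moderated SE of limma, n = 5 differences), with a 95% interval from -0.131 to 0.204 and an adjusted p of 0.923 (limma). Each SE and interval of a difference uses limma's moderated variance, which draws a gene's own variance toward a value estimated from all genes. This widens the intervals of members of small spread, such as Tgfbr1 and Id1, and narrows that of Smad7. Acvrl1 shares 127 exonic bases with an antisense gene, and whether strand was used in the authors' counting was not given in the sources used here.

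Bmpr2 (ENSMUSG00000067336, chr1:59763400-59879014), the type II receptor of the BMP branch, was measured at 10.01, 10.19, 10.01, 10.17 and 10.10 in control libraries 1 to 5. In APP/PS1 libraries 1 to 5 it was 10.26, 10.07, 10.26, 10.10 and 10.17. Numbers 1 and 3 were 0.25 higher in APP/PS1, number 5 was slightly higher, and numbers 2 and 4 were lower, so the groups overlapped. Its mean difference was 0.0787 ± 0.0740 (95% interval -0.104 to 0.261, limma adjusted p = 0.850), and it was 0.0363 without number 1 or without number 3 and 0.128 without number 2.

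Tgfbr1 (ENSMUSG00000007613, chr4:47353222-47414931), the type I receptor for TGF-beta, was at 5.81, 5.82, 5.82, 5.85 and 5.78 in control libraries 1 to 5. The APP/PS1 libraries 1 to 5 were at 5.93, 5.92, 5.93, 5.89 and 5.96. Every APP/PS1 library was above every control library, and Tgfbr1 was the sole member with separate groups, where 7.88% of all genes had them. With mirrored libraries this separation adds little to the shared sign of the 5 differences. The mean difference was 0.111 ± 0.0425 (95% interval 0.00641 to 0.216), or 1.08-fold, with an unadjusted p of 0.0410 and an adjusted p of 0.60 by limma. Without the block, a fit that counts the mirrored libraries as independent, the adjusted p was 0.0247. In the exact two-sided sign-flip permutation test it reached p = 0.0625, the smallest that 5 differences allow. By limma-voom the difference was 0.0725 (unadjusted p = 0.204), and the unadjusted p was 0.131 with endothelial markers set equal and 0.0502 to 0.138 with any 1 replicate left out, so the interval excluded 0 in none of these. In the other alternatives with a block, the unadjusted p was 0.0145 to 0.0433 and the adjusted p 0.307 to 0.659 (limma). The separation is small in size, since the SDs of Tgfbr1 were 0.0237 and 0.0236, and 2.93% of 10873 genes of at least 2 log2 CPM had a smaller SD of their 5 differences.

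Tgfbr2 (ENSMUSG00000032440, chr9:116084293-116175360), the type II receptor for TGF-beta, had levels of 8.96, 8.94, 9.08, 9.01 and 8.92 in control libraries 1 to 5. Its levels in APP/PS1 libraries 1 to 5 were 9.03, 9.04, 8.89, 8.97 and 9.06. APP/PS1 was above control in numbers 1, 2 and 5 and below it in numbers 3 and 4. The difference of 0.0169 ± 0.0627 had an interval from -0.138 to 0.172 (limma adjusted p = 0.965), and it was -0.0211 by limma-voom and -0.00235 with endothelial markers set equal.

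Eng (ENSMUSG00000026814, chr2:32646595-32682669), which encodes the co-receptor endoglin, was the most variable of the receptor genes. Control libraries 1 to 5 were at 10.59, 10.84, 10.52, 10.62 and 10.60, and APP/PS1 libraries 1 to 5 at 10.73, 10.47, 10.79, 10.71 and 10.72. Number 2 ran against the others: its control library was the highest and its APP/PS1 library the lowest of all 10. In mirrored libraries these are 2 sides of 1 difference. The difference was therefore -0.37 in number 2 and between 0.084 and 0.27 in the remaining numbers, with a mean of 0.0512 ± 0.0993 (95% interval -0.194 to 0.296, limma adjusted p = 0.927). Without number 2 the mean was 0.156. Eng shares 61 exonic bases with Fpgs on the opposite strand.

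**Figure D2:**
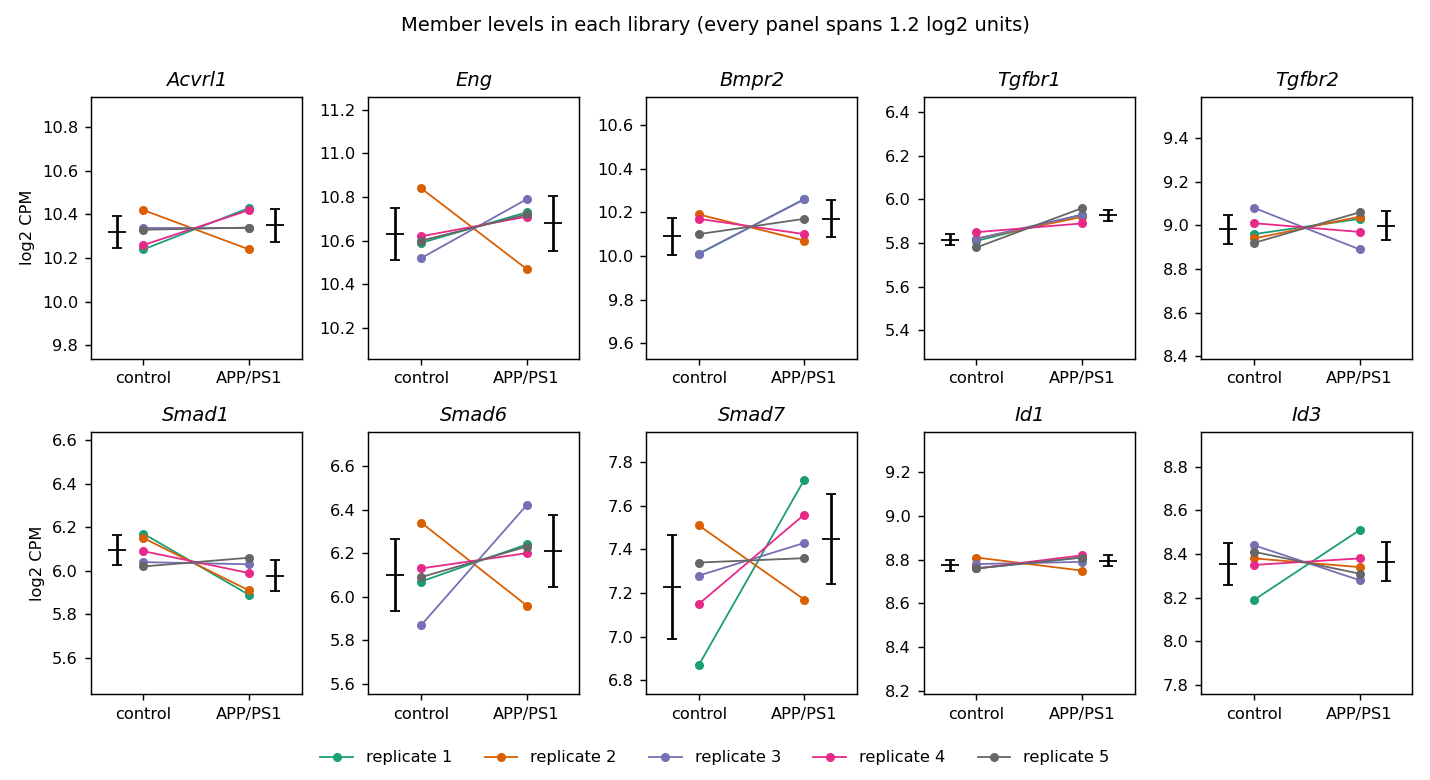
Level of each member in every library (log2 CPM, vertical axis) in control and APP/PS1 mice, with lines joining libraries of the same replicate number and black marks for the mean and SD of each group (n = 5). Each panel spans the same number of log2 units. Tgfbr1 is the one panel whose groups do not overlap, and in number 2 the lines of Eng, Smad6 and Smad7 run downward.

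Smad1 (ENSMUSG00000031681, chr8:79338395-79399518), a transducer of the BMP branch, was the single member with a negative mean difference. It was at 6.17, 6.15, 6.04, 6.09 and 6.02 in control libraries 1 to 5 and at 5.89, 5.91, 6.03, 5.99 and 6.06 in APP/PS1 libraries 1 to 5. APP/PS1 was 0.28 lower in number 1 and 0.24 lower in number 2, but 0.041 higher in number 5. The mean difference was -0.119 ± 0.0644, with an interval from -0.278 to 0.0402 and a limma adjusted p of 0.754. By limma-voom it was -0.141, with an unadjusted p of 0.0294 and an adjusted p of 0.620. The other receptor-regulated Smads of the list and Smad4 gave mean differences between -0.0169 (Smad3) and 0.0930, and Smad5, which also transduces BMP signals, was 0.0499 higher, with levels of 7.02 ± 0.0135 in control and 7.07 ± 0.0139 in APP/PS1 libraries (limma adjusted p = 0.837).

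The inhibitory Smads were the most variable members. Smad7 (ENSMUSG00000025880, on chromosome 18), which blocks the receptors of both branches, was at 6.87, 7.51, 7.28, 7.15 and 7.34 in control libraries 1 to 5. In APP/PS1 libraries 1 to 5 it was at 7.72, 7.17, 7.43, 7.56 and 7.36. Number 1 held both the lowest control library and the highest APP/PS1 library, which in mirrored libraries is 1 difference, while number 2 ran the other way. The 5 differences were 0.85, -0.33, 0.15, 0.41 and 0.024, and 95.8% of genes of at least 2 log2 CPM had a smaller SD of differences. The mean of 0.220 ± 0.169 was the largest of the members in size, at 1.16-fold, yet its interval ran from -0.197 to 0.637 (limma adjusted p = 0.834). Without number 1 the mean was 0.0622, and without number 2 it was 0.358.

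Smad6 (ENSMUSG00000036867, chr9:63953076-64022059), which acts mainly on BMP receptors and whose promoter is printed above, was at 6.07, 6.34, 5.87, 6.13 and 6.09 in control libraries 1 to 5. The APP/PS1 libraries 1 to 5 were at 6.24, 5.96, 6.42, 6.20 and 6.23. Number 3 had the largest gap, with APP/PS1 0.55 higher, and number 2 the opposite one, with APP/PS1 0.38 lower. The mean difference of 0.109 ± 0.128 had an interval from -0.207 to 0.426 (limma adjusted p = 0.882). Without number 3 the mean was 0.000029, and without number 2 it was 0.231.

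Over the 5 differences, the genes nearest in pattern to each inhibitory Smad were not other members. For Smad7, the smallest root mean square distances were to Atp7a, a copper transporter (0.0912 log2 units), Thbs1, an activator of latent TGF-beta (0.0985), and Pdgfa, a platelet-derived growth factor gene (0.109). The nearest other member was Acvrl1 at 0.329. For Smad6 they were to Pgm2l1 (0.0458), Pik3r3 (0.0808) and the transcription factor gene Tcf7 (0.0813), and the nearest other member was Eng at 0.123. These distances rest on 5 differences chosen from 10873 genes and are a description.

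Id1 (ENSMUSG00000042745, chr2:152736251-152737410), a well known direct target of BMP signals in endothelium, was steady. Control libraries 1 to 5 were at 8.76, 8.81, 8.78, 8.76 and 8.76, and APP/PS1 libraries 1 to 5 at 8.81, 8.75, 8.79, 8.82 and 8.81. All 10 libraries lay between 8.75 and 8.82, and 3.59% of genes of at least 2 log2 CPM had a smaller SD of differences. The mean difference was 0.0224 ± 0.0430, with an interval from -0.0838 to 0.129, or 0.944- to 1.09-fold (limma adjusted p = 0.926), and it was -0.0143 by limma-voom.

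Id3 (ENSMUSG00000007872, chr4:136143497-136145755), a related target gene, varied more. It was at 8.19, 8.38, 8.44, 8.35 and 8.41 in control libraries 1 to 5 and at 8.51, 8.34, 8.28, 8.38 and 8.31 in APP/PS1 libraries 1 to 5. Number 1 was 0.32 higher in APP/PS1 and number 3 was 0.16 lower. The difference of 0.0104 ± 0.0796 (95% interval -0.186 to 0.207, limma adjusted p = 0.983) turned to -0.0671 without number 1, to -0.0237 by limma-voom and to -0.00887 with endothelial markers set equal. Id1 and Id3 had the same sign in numbers 1, 2 and 4 and opposite signs in numbers 3 and 5.

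**Figure D3:**
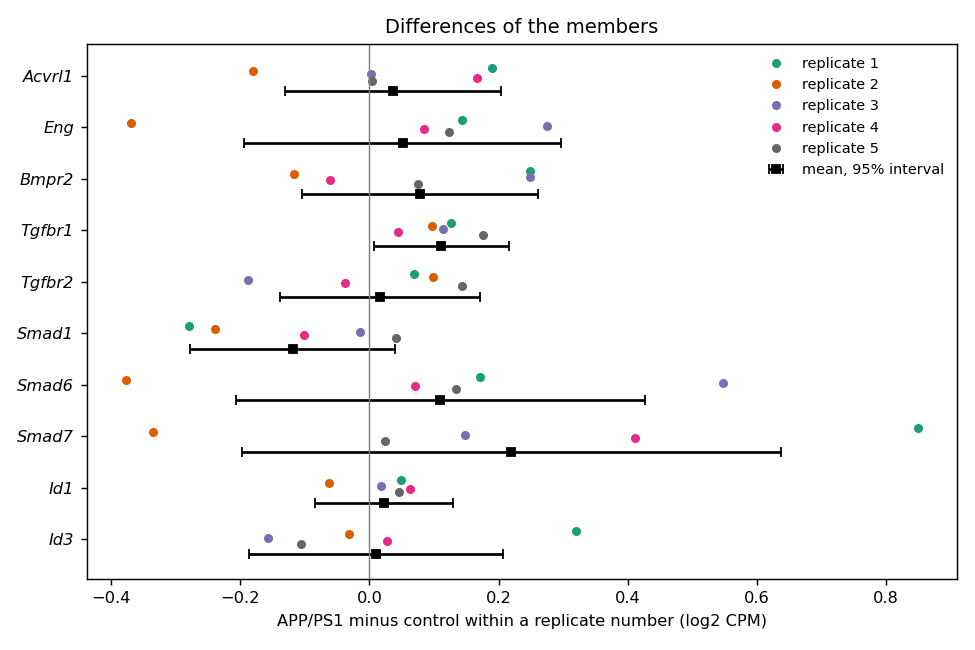
APP/PS1 minus control of each member within each replicate number (log2 CPM, horizontal axis; 1 point per number), with black squares for the mean of 5 differences and bars for its 95% interval from limma. The interval lies to the right of 0 for Tgfbr1 (0.00641 to 0.216) and includes 0 for the other 9 members.

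As a group, 9 members had a positive mean difference and 1 a negative one, with a median of 0.0438 against -0.00377 for all genes. Under other scalings 6 (limma-voom on the adjusted counts) or 7 (endothelial markers set equal) were positive, with Id3 and Tgfbr2 negative in both. The median of all genes was -0.0395 and -0.0231 in these 2 settings. None of 10 members passed the adjusted threshold where 0% of all genes did, 1 had an unadjusted p below 0.05 where 8.03% did, and 1 was higher in all 5 numbers where 2.99% were. The sign varied with the replicate number, as 9, 2, 7, 7 and 9 of the 10 members were higher in APP/PS1 in numbers 1 to 5, with medians of 0.158, -0.149, 0.0657, 0.0539 and 0.0606. Over all 14106 genes 49.1, 50.3, 48.4, 48.9 and 47.8% were higher in the same numbers. Without number 2, 6 members had the same direction in all 4 remaining numbers instead of 1, and the median was 0.103, against -0.00992 for all genes. A shared direction is reached more easily over 4 numbers than over 5, and its share over all genes was not computed. Leaving out number 2 also raised the genes with an unadjusted p below 0.05 from 1133 to 2008 of 14106 (limma).

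Number 2 was thus not lower over all genes, while abundant genes and endothelial markers more often stood lower there. All 20 endothelial markers were measured, and they summed at 15.11 to 15.24 log2 CPM in every library and had medians of 0.0281, -0.0559, 0.112, 0.0928 and 0.00980. By mean difference 15 of them were higher and 5 lower (7 and 13 by limma-voom), between -0.299 and 0.185. Among them 1 was lower with an unadjusted p below 0.05 (limma). Of 709 genes with a mean of at least 8 log2 CPM, 465, 182, 532, 540 and 533 were higher in APP/PS1 in numbers 1 to 5 (a level chosen after the values were seen). Markers of other cell types also differed between libraries. The 10 pericyte markers, of which Rgs5 was the most abundant, had a median difference of -0.774 with 10 of 10 lower, and medians of -1.74, -0.342, -0.554, -1.50 and 0.0759 by number. Their summed level was 9.0 to 9.82 in control and 8.01 to 9.06 log2 CPM in APP/PS1 libraries, and 7 of the 10 were lower with an unadjusted p below 0.05 (limma). The 7 measured oligodendrocyte markers had medians of -3.62, 1.31, -1.81, -2.63 and -1.80, with sums of 5.33 to 8.10 and 5.05 to 7.14, 4 of the 7 were lower at that p, and 1 of them was at 0 in a library.

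The 6 measured smooth muscle markers had a median of -0.710, with 5 of 6 lower at an unadjusted p below 0.05 (limma) and sums of 8.18 to 8.42 in control and 7.88 to 8.08 in APP/PS1 libraries. The 8 astrocyte markers had a median of -0.958, with 2 of 8 lower at that p, but sums of 8.08 to 8.27 and 8.06 to 8.32. Smaller lists gave medians of -0.391 for 5 neuron, -0.578 for 4 fibroblast and -0.161 for 7 microglia and leukocyte markers, with 3, 1 and 0 of them lower at that p. Of 14 measured genes of the response to tissue dissociation, 14 were higher (12 by limma-voom), with a median of 0.142 and medians of -0.0758, -0.0162, 0.15, 0.484 and 0.229 by number, and 2 of them, Junb (0.275) and Klf4 (0.248), had an unadjusted p below 0.05. No gene of any of these lists passed the adjusted threshold by limma. Their part in the members' values was not tested, and in bulk samples fewer cells of a type and less RNA per cell cannot be told apart.

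**Figure D4:**
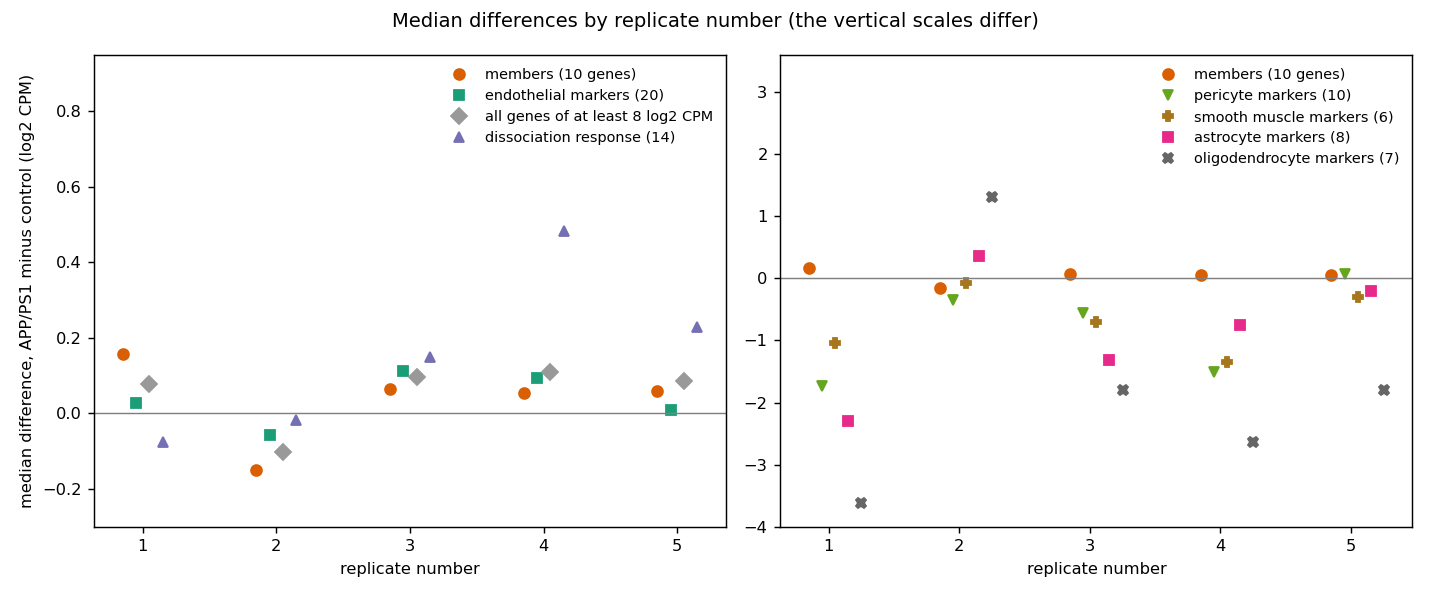
Median difference of each gene list (APP/PS1 minus control, log2 CPM, vertical axis) against replicate number, with members and endothelial, abundant and dissociation genes on the left and members with markers of other cell types on the right, on another vertical scale. The members stand at -0.149 in number 2, where the endothelial markers are at -0.0559 and the oligodendrocyte markers at 1.31.

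The wider pathway was described by 97 genes in 9 roles, of which 80 were measured, members included. Of the 70 that were not members, 39 were higher and 31 lower in APP/PS1, 2 higher and 6 lower with an unadjusted p below 0.05, and none passed the adjusted threshold (limma). Over all 14106 genes, 6798 were higher and 7308 lower, and 300 and 833 were so with an unadjusted p below 0.05 (limma). Among 39 such genes at or above 5 log2 CPM none differed by over 0.25, with a range from -0.229 (Ccn2) to 0.232 (Tgfb2), while 11 of the 31 below 5 did, 9 of them lower. Both limits were chosen after the values were seen.

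Of 16 genes in the list of BMP and activin ligands, 7 were measured, with 2 higher, 5 lower and a median of -0.0319. The list includes Bmp1, which encodes a protease and not a ligand. It is among the lower genes, and its own difference of -0.0319 is the median. The circulating ligands of ALK1, Gdf2 (BMP9) and Bmp10, were not among the 14106 genes analysed here. Bmp6 was the ligand of highest level per length, at 2.55 log2 CPM per kb, with a difference of 0.104 ± 0.142. Bmp5 differed most, by -0.477 ± 0.248 (limma adjusted p = 0.733), with mean levels of 0.355 ± 0.263 (control) and -0.122 ± 0.400 (APP/PS1) log2 CPM.

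All 12 TGF-beta ligands and latency genes were measured, with 7 higher, 5 lower and a median of 0.0691. Ltbp3, which binds latent TGF-beta in the matrix, was at 4.37, 4.28, 4.35, 4.22 and 4.37 log2 CPM in control libraries 1 to 5 and at 3.83, 3.92, 3.85, 3.98 and 3.83 in APP/PS1 libraries 1 to 5. The groups did not overlap, and the difference of -0.434 ± 0.0626 had the smallest p of the pathway (limma unadjusted p = 0.000517, adjusted p = 0.303). Tgfb3, a TGF-beta ligand, was at 1.77 ± 0.252 in control and 0.941 ± 0.442 in APP/PS1 libraries, with differences of -2.04, -0.353, -0.579, -0.740 and -0.425 (limma adjusted p = 0.569).

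Itgb8, an integrin subunit that activates latent TGF-beta, had the largest difference of the pathway, at -1.23 ± 0.265 (limma adjusted p = 0.454). It is a gene that astrocytes express, and its level was low, 0.295 ± 0.289 in control and -0.939 ± 0.422 log2 CPM in APP/PS1 libraries, down to 8 adjusted counts. Its 5 differences were -1.92, -0.189, -1.13, -1.86 and -1.07, beside astrocyte marker medians of -2.29, 0.360, -1.31, -0.745 and -0.200. The smooth muscle and fibroblast marker medians were below 0 in all 5 numbers. Those of the astrocyte, oligodendrocyte and neuron markers were above 0 in number 2. Whether any of these lists bears on Itgb8 was not tested. Ltbp4, another latency protein, was as abundant per length as Eng, at 8.64 log2 CPM per kb, with a difference of 0.142 ± 0.0908 (limma adjusted p = 0.801).

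Of the type I receptors, 6 of 7 were measured, with 4 higher and 2 lower (3 and 3 by limma-voom) and a median of 0.0354. Bmpr1a, a BMP receptor, was at 2.76 ± 0.133 in control and 2.42 ± 0.140 in APP/PS1 libraries and was lower in 4 of 5 numbers (limma unadjusted p = 0.0209, adjusted p = 0.569). Of the 4 type II receptors, 3 were higher and 1 lower (2 and 2 by limma-voom and with endothelial markers set equal). The lower one was Acvr2a, whose difference of -0.0930 ± 0.0741 was the largest in that list (limma adjusted p = 0.837). Among 8 co-receptors and decoys, 3 were higher and 5 lower, and 0 of 8 were higher in number 2. Rgma, a BMP co-receptor, differed by -0.949 ± 0.349 at a level of 1.34 ± 0.367 in control libraries (limma adjusted p = 0.594), with differences of -1.98, -0.0128, -0.553, -1.92 and -0.281.

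The 15 inhibitory Smads and intracellular regulators were, among the 9 pathway roles, the list most often of 1 sign, with 14 higher and 1 lower (12 and 3 by limma-voom and with endothelial markers set equal) and a median of 0.0589. In numbers 1 to 5, 10, 2, 13, 12 and 12 of them were higher. Over all genes, 6798 of 14106 had a higher mean in APP/PS1. Of the 709 genes of at least 8 log2 CPM, 65.6, 25.7, 75.0, 76.2 and 75.2% were higher in numbers 1 to 5. The pattern by number is thus not particular to this list. Besides Smad6 and Smad7, Ski, a repressor of Smad-driven transcription, differed by 0.210 ± 0.0843, from 8.08 ± 0.0985 to 8.29 ± 0.103 (limma unadjusted p = 0.0484, adjusted p = 0.621). Ski was higher in APP/PS1 in 4 of 5 numbers and 0.134 lower in number 2.

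Of 15 extracellular antagonists, 9 were measured, with 2 higher, 7 lower and a median of -0.0454. Grem1, a secreted BMP antagonist, was lower in all 5 numbers, by -0.406 ± 0.0749, at 1.33 ± 0.0866 in control and 0.922 ± 0.0868 in APP/PS1 libraries (limma unadjusted p = 0.00182, adjusted p = 0.373). Nog, a related antagonist, went the other way by 0.488 ± 0.174, at 1.19 ± 0.237 and 1.68 ± 0.221 (limma adjusted p = 0.582), with number 2 at -0.0434. Mgp, which binds BMPs in vessel walls, was abundant at 8.38 log2 CPM per kb and differed by 0.0414 ± 0.192.

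Of 13 measured target genes, Id1 and Id3 included, 9 were higher and 4 lower (6 and 7 by limma-voom), with a median of 0.0224, and 0 of 13 were higher in number 2. Hey2, a target of Notch and BMP signals, differed most, by -0.25 ± 0.156 (limma adjusted p = 0.792). Atoh8, a BMP9 target, was at 4.49 ± 0.149 in control and 4.71 ± 0.145 in APP/PS1 libraries, with an interval of the difference from -0.0635 to 0.507, and was chosen for mention after its value was seen. No target gene had an unadjusted p below 0.05, where 8.03% of all genes did.

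**Figure D5:**
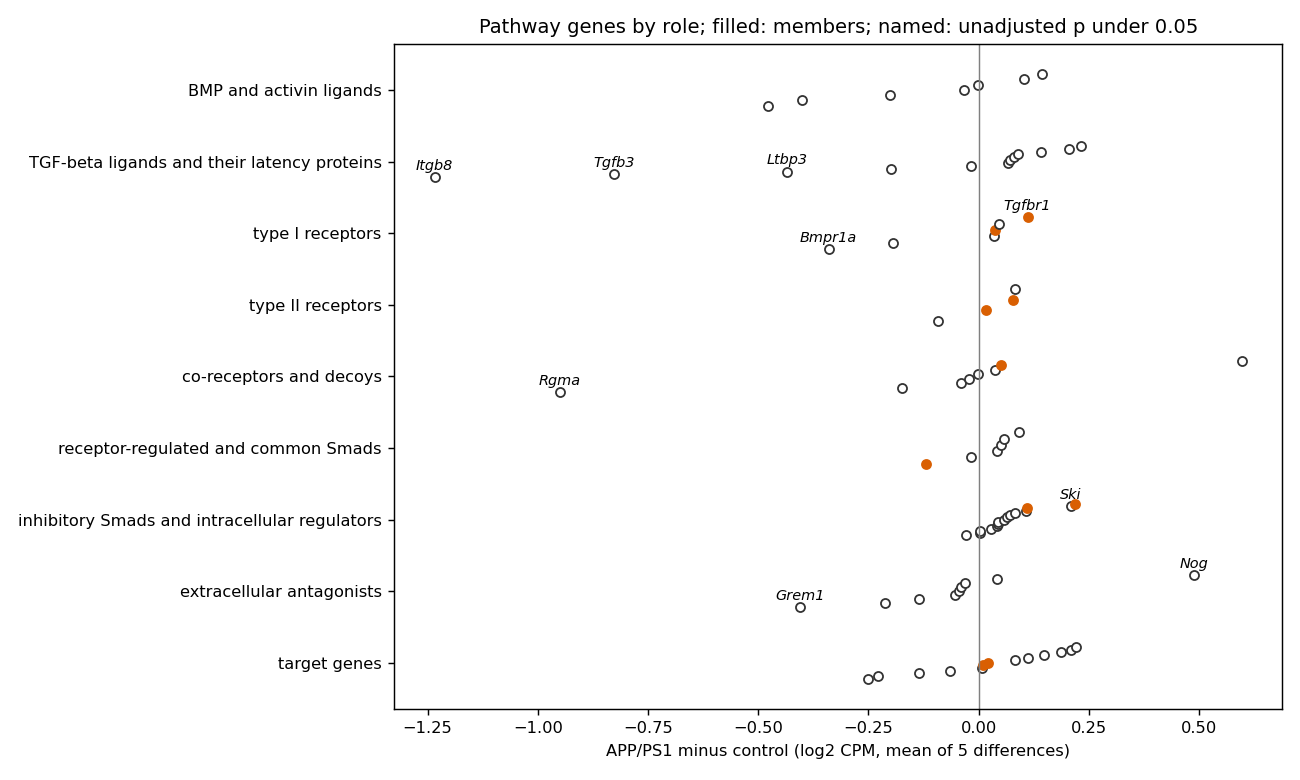
Mean difference of the 80 measured pathway genes (APP/PS1 minus control, log2 CPM, horizontal axis) by role, with members filled and genes of unadjusted p below 0.05 named. The members lie between -0.119 (Smad1) and 0.220 (Smad7), and the points below -0.25, down to Itgb8 at -1.23, are genes under 5 log2 CPM.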

How the data were processed

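RNA of BECs from 5 control and 5 APP/PS1 libraries was measured. Per the paper's methods and the submitters' processing notes, the authors aligned reads to mm10 with STAR, counted them with HTSeq-count, used edgeR to drop genes of low count (filterByExpr) and to compute log CPM, applied ComBat of sva for batch and deposited log2 CPM of 14106 genes. Tool versions were not given in the sources used here. All deposited log2 values converted back to whole adjusted counts (100% within 0.01, prior count 3, lowest value -4.85 log2 CPM), and the 10 library files equalled their columns. Symbols and coordinates came from GENCODE M21 (GRCm38), which matched 14106 of 14106 identifiers, and promoters from RefSeq (GRCm38.p6).

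The linear model of limma 3.58.1 (R 4.3.3) was fitted to the deposited log2 values of all genes with genotype and replicate number as terms (4 residual degrees of freedom) and Benjamini-Hochberg adjustment over 14106 genes, and an exact two-sided sign-flip permutation test was run over the 5 differences of a member. Variances were moderated over genes by limma's empirical Bayes step. Libraries were paired by replicate number. Deviations of the libraries of a number from their group means correlated between -0.970 and -0.939 over genes, and the median SD over genes was 0.00353 for pair means against 0.173 for pair differences, since the batch correction equalised the pair means. The sample labels name 4 batches, with numbers 4 and 5 sharing 1, and the study's supplement shows 5. Length was the union of a gene's exons.

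The members, the gene lists and the tests were chosen with earlier results of these data known. Named genes were the members, pathway genes with an unadjusted p below 0.05, and the gene of highest level and of largest difference in each list. For the 2 members with the largest SD of differences, the 3 genes of at least 2 log2 CPM with the nearest differences were named too. Alternatives were no replicate block, 4 label batches, a mean-variance trend, limma-voom on the adjusted counts, a prior count of 0.5, median-of-ratios size factors, endothelial markers set equal, a mean of at least 1 log2 CPM and each replicate left out in turn. Transgenes and some promoter windows are not reported here.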

Additional observations from a re-analysis of the deposited data

Results flagged for a closer look

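A search for a library far from the others of its group, by Dixon's ratio of the gap to the whole range (critical value 0.71 for 5 libraries), covered 58 groups of 29 named genes and found 3. Chance finds about 1 in 20 groups. As the batch correction mirrored the paired libraries, the search cannot tell which library of a pair was unusual. Eng in APP/PS1 replicate 2 was at 10.47 log2 CPM, with the nearest library of the group at 10.71 (ratio 0.728). Tgfb3 in APP/PS1 replicate 1 was at 0.161, with the nearest at 1.03 (ratio 0.817). Fos, the most abundant gene of the dissociation list, was at 11.8 in control replicate 4, with the nearest at 12.01 (ratio 0.723).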

How the results depend on the processing

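The fit without the replicate block called 648 genes, against 0 with it, and among the members it called 1, Tgfbr1 (difference 0.111). It treats libraries that the batch correction tied together as independent. A replicate block of the 4 label batches called 1 gene of all. With each replicate left out, 0 to 5 genes were called (5 without replicate 2), members called stayed at 0, 1 to 6 members had the same direction in every remaining number (6 without replicate 2), and the members' median was 0.0220 to 0.103. The share of all genes with 1 direction over 4 numbers was not computed. With endothelial markers set equal, 0 members had 1 direction in all numbers. Over the other alternatives the members' median was 0.0128 to 0.0484.

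Differences changed sign, with no call in either setting, for Id1 (-0.0143), Id3 (-0.0237) and Tgfbr2 (-0.0211) by limma-voom and for Id3 (-0.00887) and Tgfbr2 (-0.00235) with endothelial markers set equal. The median of all genes also moved, from -0.00377 to -0.0395 by limma-voom and to -0.0231 with endothelial markers set equal. The endothelial setting shifts the difference of every gene by the same amount. The limma-voom fit scaled libraries by their totals of adjusted counts, a scale other than that of the deposited values. Leaving out replicates gave -0.00195 to 0.0905 for Acvrl1, 0.0363 to 0.128 for Bmpr2, 0.000029 to 0.231 for Smad6, 0.0622 to 0.358 for Smad7, -0.00474 to 0.156 for Eng, -0.0671 to 0.0523 for Id3 and -0.0147 to 0.0682 for Tgfbr2. Apart from the scales of the endothelial and limma-voom settings, the cause of these changes was not tested. Tgfbr1 remained positive throughout, with limma adjusted p-values of 0.307 to 0.989 in the alternatives with a block.

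The 5 differences allow an exact sign-flip permutation p of at best 0.0625. From end to end, the 95% intervals of the members span 0.210 (Tgfbr1) to 0.834 (Smad7) log2 units. The intervals of 9 members included 0, so the differences of these 9 could not be told from 0. The deposited values are no longer reads, so edgeR and DESeq2 were not used.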
